A study of Arabidopsis thaliana with 24 samples.

Results

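The genes described here are 33 nuclear genes of pigment synthesis in Arabidopsis thaliana: 21 of the tetrapyrrole pathway that leads to chlorophyll a and b, and 12 of the carotenoid pathway. They were chosen by locus from a list of pathway enzymes. The rule uses no measured value, but the list was drawn up with earlier results of these data known. All 33 had transcription start site clusters in every pool, and they held 1214 of the 317183 clusters and were 33 of 22582 genes with a cluster.

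The assay was CAGE, in which capped RNA is captured and a tag is sequenced from its 5′ end, in aerial parts of wild-type 2-week-old seedlings of 4 natural accessions, Vash-1, Altenb-2, Kly-1 and Shigu-2. There were 24 libraries, 3 in each of 8 groups per the labels, each accession being either a control (22 °C, continuous light of 40 µE) or treated for 24 h with high light and cold together (140 µE, 4 °C). The deposited table gives 1 count per cluster in each of 4 sets, whose identifiers carry the accessions' initials, and no column for a library, treatment or replicate. Each set is therefore handled as a pool named by accession, a gene has 1 value per pool with no SD, no n and no test, and the response to light and cold was not computed.

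The make-up of each pool from control and treated libraries is not stated, so effects of accession and of treatment cannot be told apart. In a bulk sample, fewer cells of a type and less RNA per cell cannot be told apart either. Levels are CPM, a gene's tags scaled to the pool's total outside the ribosomal RNA repeats, and as CAGE counts 5′ ends they need no division by gene length. Intervals are exact 95% intervals and cover counting error only. The pools held 22462179 to 37230794 tags outside these repeats. The 4 markers of green tissue ranged from 879.6 to 31569 CPM, and the 4 root markers reached at most 6.50 CPM. Of the 3 flower markers, AP3 and PI were not listed, and AG was listed at 0.223 CPM in Altenb-2 and 0.457 in Shigu-2 only.

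The tetrapyrrole pathway starts from glutamate bound to its transfer RNA, makes aminolevulinic acid and then protoporphyrin, and there divides into a magnesium branch to chlorophyll and an iron branch to heme. Its late intermediates are photosensitizers, and the reduction of protochlorophyllide needs light in flowering plants. The carotenoid pathway joins geranylgeranyl units into phytoene, desaturates it to lycopene, and cyclizes that towards lutein or towards zeaxanthin, violaxanthin and abscisic acid. Both kinds of pigment sit in the photosystems, where carotenoids also dissipate excess light energy.

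The chlorophyll genes were the more abundant of the 2 branches. Their levels summed to 6913 CPM in Altenb-2, 6619 in Vash-1, 6549.7 in Kly-1 and 5112 in Shigu-2. The carotenoid genes summed to 704, 900.0, 797 and 925 CPM in the same order of pools, which is kept wherever 4 values stand without their names. Shigu-2 was thus the lowest pool for the first sum and the highest for the second, while Altenb-2 was the highest for the first and the lowest for the second. Part of this rests on the scale. With the ribosomal repeats kept in the total, the chlorophyll genes summed to 3139 CPM in Altenb-2, 3105 in Vash-1, 3651 in Kly-1 and 3027.5 in Shigu-2, so that Kly-1 was the highest. By the median of ratios the carotenoid sum was highest in Vash-1, at 923 CPM against 853 in Shigu-2. The most abundant member, CRD1, stood at the 99.6th percentile of the genes at or above 5 CPM by mean level, and CRTISO, the lowest member above that minimum, at the 61.0th percentile.

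**Figure D1:**
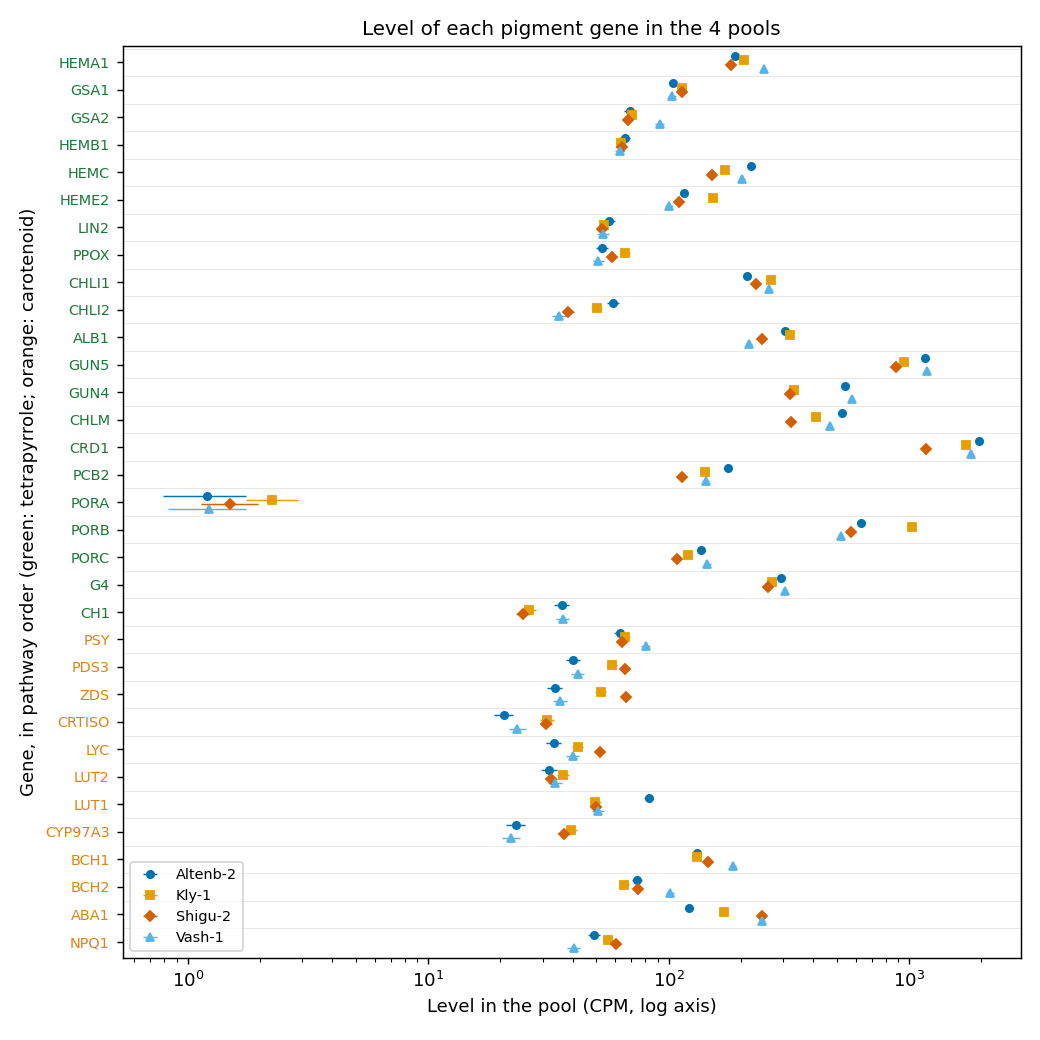
Level of each of the 33 genes (rows, in pathway order) in the 4 pools, in CPM on a log axis; points are pooled values and bars are exact 95% counting intervals. Most genes have their 4 points close together, PORA lies far to the left at 1.20 to 2.25 CPM, and CRD1 and GUN5 lie at the right.

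Among the early steps, HEMA1 (AT1G58290), the glutamyl-tRNA reductase that commits glutamate to the pathway, had a mean of 207 CPM over the pools, with 182 in Shigu-2 and 249 in Vash-1 as the extremes. The next enzyme, glutamate-1-semialdehyde aminomutase, is encoded by 2 genes. GSA1 (AT5G63570) had 104 CPM in Altenb-2, 103 in Vash-1, 114 in Kly-1 and 114 in Shigu-2. GSA2 (AT3G48730) had 68.8, 91.7, 70.2 and 67.7 CPM. GSA1 was therefore nearly level across the pools and GSA2 was high in Vash-1 alone. The ratio of GSA1 to GSA2 was 1.52 (1.42 to 1.62) in Altenb-2, 1.12 (1.06 to 1.19) in Vash-1, 1.62 (1.54 to 1.72) in Kly-1 and 1.68 (1.596 to 1.76) in Shigu-2. The Vash-1 interval overlapped none of the others.

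The 2 aminomutase genes lie on different chromosomes but share the sequence at their main start. Each had its main start at the same base in all 4 pools, 77 bp past the annotated gene start in GSA1 and 57 bp in GSA2. The TAIR10.1 reference sequence from -20 to 9 around each start, counted with the start as 0, is shown with 1-based coordinates because the pair keeps the same letters at the same distance. Capitals mark CTTATC, the reverse complement of GATAAG, and the start base itself.
GSA1, chr5:25451857-25451886, plus strand: gttggccatcgcCTTATCttGttgactctt
GSA2, chr3:18049608-18049637, plus strand: gatcatctccgcCTTATCttGttgactatc
The longest shared run was 18 bp, from -11 to 6, and 27 of 41 positions from -30 to 10 were identical. In Vash-1 GSA2 had 3 separate clusters at or above 5 CPM, with peaks at 34, 57 and 87 bp, of 11.5, 43.4 and 35.3 CPM. A separate cluster at 34 bp was also listed in Altenb-2 and in Kly-1, of 6.81 and 6.62 CPM. In Shigu-2 a single cluster with its peak at 57 bp held 99.4% of the gene's tags, so the cluster boundaries differed between pools while the highest start did not.

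Of the steps from aminolevulinic acid to protoporphyrin, HEMB1 and LIN2 were nearly level across the pools. HEMB1 (AT1G69740), the aminolevulinic acid dehydratase, had the smallest span of all members, from 62.8 to 65.8 CPM, and the interval of its highest to lowest ratio, 0.975 to 1.13, includes 1. LIN2 (AT1G03475), the coproporphyrinogen oxidase, ran from 52.8 to 56.7 CPM with a ratio interval of 1.0002 to 1.15. PPOX (AT4G01690), the protoporphyrinogen oxidase, ran from 51.1 CPM in Vash-1 to 66.0 in Kly-1. HEMC (AT5G08280), the porphobilinogen deaminase, ran from 152 CPM in Shigu-2 to 220.4 in Altenb-2. HEME2 (AT2G40490), a uroporphyrinogen decarboxylase, ran from 101 CPM in Vash-1 to 153 in Kly-1.

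Magnesium chelatase, which inserts magnesium into protoporphyrin, has the subunits I, D and H, and GUN4 (AT3G59400) binds its substrate and product and activates it. The H subunit gene GUN5 (AT5G13630) had 1168 CPM in Altenb-2, 1186 in Vash-1, 954 in Kly-1 and 887 in Shigu-2. GUN4 had 541, 581, 331 and 319 CPM. In both genes Altenb-2 and Vash-1 lay above Kly-1 and Shigu-2. GUN4 showed the wider gap, with a highest to lowest ratio of 1.82 (1.77 to 1.86) against 1.34 (1.32 to 1.36) for GUN5.

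The subunit I genes moved apart from each other. CHLI1 (AT4G18480), the main copy, had 213 CPM in Altenb-2, 263 in Vash-1, 268 in Kly-1 and 231 in Shigu-2. CHLI2 (AT5G45930) had 58.7, 35.1, 50.3 and 38.3 CPM. CHLI2 was highest and CHLI1 lowest in Altenb-2, and the ratio of CHLI1 to CHLI2 was 3.63 (3.41 to 3.86) there against 7.48 (6.96 to 8.04) in Vash-1. These copies are alike in sequence, and how tags with several matches were assigned is not stated. ALB1 (AT1G08520), the gene of subunit D, ran from 217 CPM in Vash-1 to 319 in Kly-1. CHLI1 stood at 0.699 (0.674 to 0.726) of ALB1 in Altenb-2 and at 1.21 (1.17 to 1.26) of it in Vash-1, so the order of these 2 subunit genes turned between pools. The ratio of GUN5 to ALB1 ran from 2.99 (2.92 to 3.06) in Kly-1 to 5.47 (5.32 to 5.64) in Vash-1.

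After the chelatase, CHLM (AT4G25080) methylates magnesium protoporphyrin, CRD1 (AT3G56940) is a subunit of the cyclase that closes the fifth ring, and PCB2 (AT5G18660) reduces the vinyl group. CHLM had 528 CPM in Altenb-2, 468 in Vash-1, 412 in Kly-1 and 324 in Shigu-2. CRD1 had 1950.2, 1805, 1730.1 and 1182 CPM. Shigu-2 was the lowest pool for both, and for CRD1 it lay apart from the other 3. The ratio of Altenb-2 to Shigu-2 was 1.65 (1.63 to 1.67) for CRD1 and 1.63 (1.58 to 1.67) for CHLM. PCB2 ran from 114 CPM in Shigu-2 to 176 in Altenb-2.

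Protochlorophyllide oxidoreductase, the enzyme that uses light, has 3 genes with separate uses: PORA (AT5G54190) is known from etiolated seedlings, PORB (AT4G27440) is made in the dark and in the light, and PORC (AT1G03630) is made in the light. PORA had 1.20 CPM in Altenb-2, 1.22 in Vash-1, 2.25 in Kly-1 and 1.504 in Shigu-2, from 27, 30, 66 and 56 tags, and did not reach the 5 CPM minimum used for spans. PORB had 634, 522, 1028 and 575 CPM. PORC had 136, 145, 121 and 108 CPM. PORB was highest in Kly-1, where PORC was the second lowest. PORA also had its highest value there, at 1.87 times (1.18 to 3.05) its lowest, that of Altenb-2. The PORA interval in Kly-1, 1.741 to 2.86 CPM, overlapped that of every other pool. The overlap was slight with Altenb-2 (up to 1.749 CPM) and with Vash-1 (up to 1.745 CPM). The ratio of PORB to PORC was 8.49 (8.20 to 8.80) in Kly-1, 5.31 (5.14 to 5.49) in Shigu-2, 4.66 (4.48 to 4.85) in Altenb-2 and 3.60 (3.47 to 3.74) in Vash-1, and no interval overlapped its neighbour. PORB exceeded PORA by 382-fold (294 to 506) in Shigu-2 and by 527-fold (362 to 801) in Altenb-2, and these intervals overlap.

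The last steps were the chlorophyll synthase gene G4 (AT3G51820), at 260.0 CPM in Shigu-2 to 305 in Vash-1, and CH1 (AT1G44446), the chlorophyllide a oxygenase that makes chlorophyll b. CH1 was among the 5 lowest members, with 35.9 CPM in Altenb-2, 36.2 in Vash-1, 26.3 in Kly-1 and 24.8 in Shigu-2. Altenb-2 and Vash-1 stood together above the other pools, and the smaller of these 2 was 1.37 times the larger of the remaining ones.

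In the carotenoid pathway, phytoene synthase PSY (AT5G17230), the entry step, ran from 62.7 CPM in Altenb-2 to 80.2 in Vash-1. The desaturation steps that follow showed another order of pools. Phytoene desaturase PDS3 (AT4G14210) had 40.1 CPM in Altenb-2, 41.98 in Vash-1, 58.1 in Kly-1 and 65.6 in Shigu-2. Zeta-carotene desaturase ZDS (AT3G04870) had 33.6, 35.4, 52.2 and 66.4 CPM, a highest to lowest ratio of 1.98 (1.82 to 2.15). The carotenoid isomerase gene CRTISO (AT1G06820), among the 5 lowest members, had 20.7, 23.5, 31.3 and 31.0 CPM. For these 3 genes Kly-1 and Shigu-2 lay above Altenb-2 and Vash-1 with intervals that did not overlap. The zeta-carotene isomerase gene Z-ISO (AT1G10830), which is not among the 33, acts between PDS3 and ZDS and had 46.7, 37.3, 34.0 and 31.5 CPM, with Altenb-2 highest and Shigu-2 lowest.

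Lycopene is then cyclized. The beta-cyclase gene LYC (AT3G10230) had 33.4 CPM in Altenb-2, 39.9 in Vash-1, 41.9 in Kly-1 and 51.7 in Shigu-2. The epsilon-cyclase gene LUT2 (AT5G57030), which directs lycopene towards lutein, had 31.8, 33.7, 36.4 and 32.4 CPM. LUT2 was almost level and LYC was not, so the ratio of LYC to LUT2 was 1.05 (0.946 to 1.16) in Altenb-2 and 1.59 (1.48 to 1.72) in Shigu-2.

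Cytochromes P450 hydroxylate the rings of the lutein branch, LUT1 (AT3G53130) acting on the epsilon ring and CYP97A3 (AT1G31800) on the beta ring. LUT1 had 82.5 CPM in Altenb-2, 50.9 in Vash-1, 49.6 in Kly-1 and 50.1 in Shigu-2. CYP97A3 had 23.1, 22.2, 39.2 and 36.8 CPM. LUT1 was high in Altenb-2 alone, whereas CYP97A3 was low in Altenb-2 and in Vash-1. The ratio of LUT1 to CYP97A3 was 3.57 (3.24 to 3.95) in Altenb-2, 2.30 (2.07 to 2.54) in Vash-1, 1.36 (1.27 to 1.46) in Shigu-2 and 1.27 (1.17 to 1.37) in Kly-1, the last 2 with overlapping intervals.

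The non-heme beta-carotene hydroxylases BCH1 (AT4G25700) and BCH2 (AT5G52570) kept nearly the same ratio to each other. BCH1 had 131.5 CPM in Altenb-2, 186 in Vash-1, 131.2 in Kly-1 and 146 in Shigu-2. BCH2 had 73.7, 101, 65.2 and 74.5 CPM. Both were highest in Vash-1, and the ratio of BCH1 to BCH2 lay between 1.78 (1.68 to 1.89) and 2.01 (1.91 to 2.13).

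The xanthophyll cycle genes came last in the pathway, and ABA1 had the widest span of the members at or above 5 CPM on this scale. ABA1 (AT5G67030), zeaxanthin epoxidase, which also supplies the abscisic acid pathway, had 122 CPM (117 to 127) in Altenb-2, 244 (238 to 251) in Vash-1, 170 (165 to 175) in Kly-1 and 245 (240.4 to 250.4) in Shigu-2. NPQ1 (AT1G08550), violaxanthin de-epoxidase, which runs the reverse reaction in high light, had 49.1, 40.4, 56.1 and 60.6 CPM. Shigu-2 and Vash-1 were alike for ABA1, with overlapping intervals, but were the highest and the lowest pool for NPQ1. The ratio of ABA1 to NPQ1 was 2.49 (2.32 to 2.67) in Altenb-2, 6.05 (5.65 to 6.47) in Vash-1, 3.03 (2.87 to 3.21) in Kly-1 and 4.05 (3.86 to 4.24) in Shigu-2.

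Spans between the pools were compared with those of all genes on the scale of log2(CPM + 0.5). Of the 32 members at or above 5 CPM in at least 1 pool, 1 spanned 2-fold or more, ABA1 with a ratio of 2.01 (1.93 to 2.10), while 23.5% of 14774 genes did. With a minimum of 20 CPM the background was 20.5%, and ABA1 was again the single member past 2-fold. ABA1, ZDS and PORB lay close to that line, at log2 spans of 1.01, 0.97 and 0.98. Scaling by the median of ratios left 1 member past 2-fold too, but it was GUN4 and not ABA1. At 1.5-fold the members were close to the background, with 15 of 32 against 53.2%. The median span was 1.48-fold for the members and 1.53-fold for all genes.

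**Figure D2:**
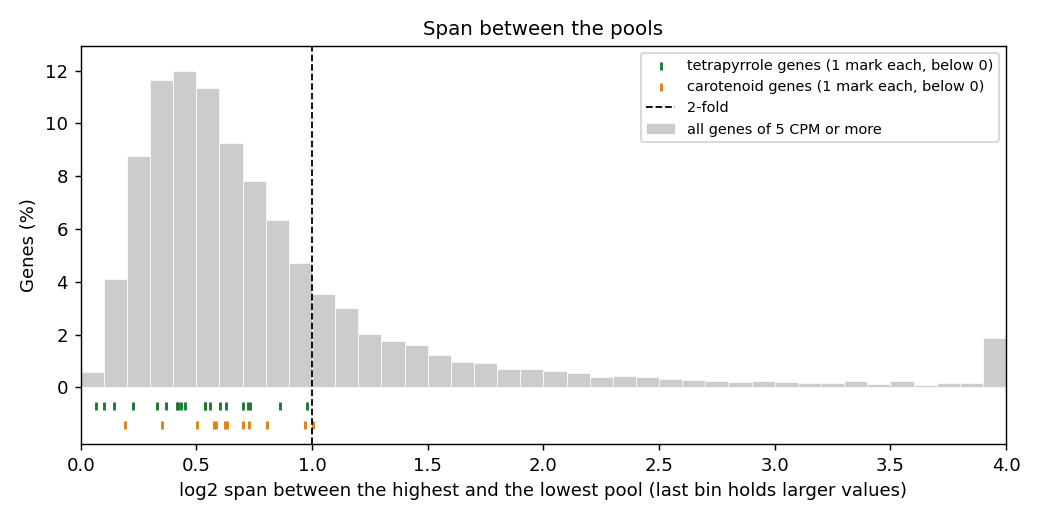
Distribution of the log2 span between the highest and the lowest pool for 14774 genes at or above 5 CPM (grey bars, percent of genes), with 1 mark below the axis for each of the 20 tetrapyrrole and 12 carotenoid genes at that level. ABA1 is the single mark at the 2-fold line (dashed), and 23.5% of all genes reach it.

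The medians of the branches took different orders of the pools. Relative to the median of all genes, the median log2 difference of the tetrapyrrole genes was 0.24 in Altenb-2, 0.21 in Vash-1, -0.05 in Kly-1 and -0.41 in Shigu-2, each pool being set against the mean of the other 3. The carotenoid genes had -0.18, -0.08, 0.05 and 0.17. A change of scale moves all genes of a pool nearly alike, so values relative to all genes are almost fixed under it. The median log2 difference of all genes, against which these values are given, was itself -0.13, -0.05, 0.04 and 0.16. Scaling by the median of ratios shifted it by 0.14 in Altenb-2 and by -0.16 in Shigu-2. Keeping the ribosomal repeats shifted it by -0.23 in Altenb-2, -0.18 in Vash-1, 0.15 in Kly-1 and 0.26 in Shigu-2. Not set against all genes, the tetrapyrrole medians were 0.11 in Altenb-2, 0.15 in Vash-1, -0.0076 in Kly-1 and -0.25 in Shigu-2. With the repeats kept all 4 turned sign, to -0.13, -0.026, 0.14 and 0.014. The carotenoid medians, -0.31, -0.13, 0.09 and 0.32 on this basis, kept their signs under both scalings. They ran in the same order as the medians of all genes, and the single carotenoid genes were divided. Above 0 lay 1, 5, 7 and 7 of the 12, against 5490, 6326, 8292 and 9754 of 14774 genes. Shigu-2 was the lowest pool for 12 of 20 tetrapyrrole genes and for 0 of 12 carotenoid genes, against 16.8% of all genes. With the ribosomal repeats kept, 4 tetrapyrrole and 0 carotenoid genes were lowest in Shigu-2 against 6.69% of all genes. With the median of ratios they were 18 and 3 against 27.2%.

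**Figure D3:**
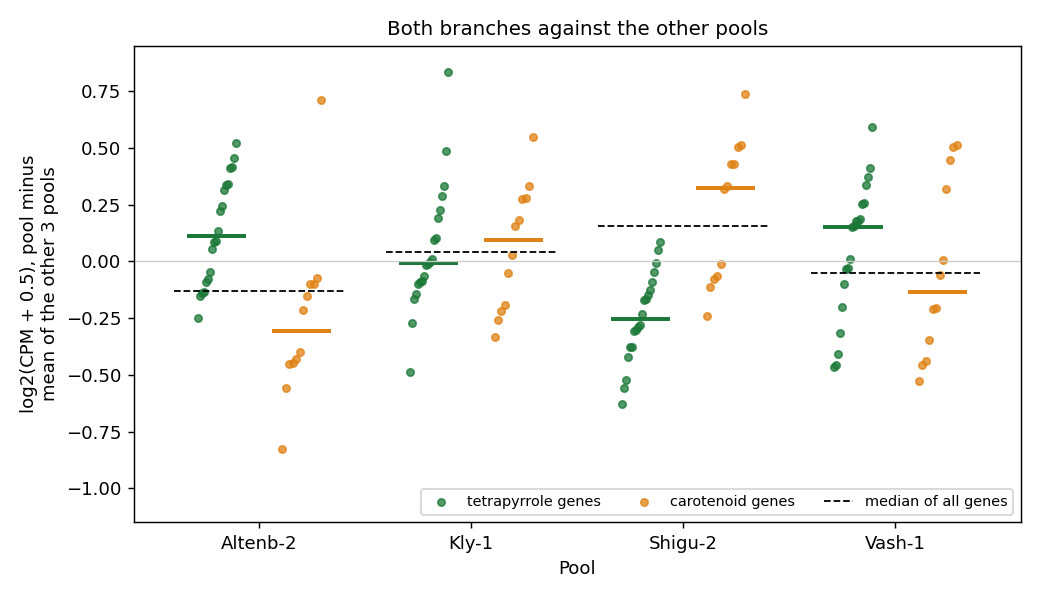
Difference of each gene's log2(CPM + 0.5) in a pool from its mean in the other 3 pools, for 20 tetrapyrrole (green) and 12 carotenoid genes (orange); thick bars are branch medians and dashed lines are the median of all genes. The green bar lies above the dashed line in Altenb-2 and Vash-1 and below it in Shigu-2, and the orange bar takes the opposite side in each of these pools.

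A split of the pools in pairs, chosen after the values were seen, describes this order gene by gene. Altenb-2 and Vash-1 were both above Kly-1 and Shigu-2 for 9 of 20 tetrapyrrole genes, namely HEMC, GUN5, GUN4, CHLM, CRD1, PCB2, PORC, G4 and CH1, against 13.7% of all genes. The counting intervals overlapped across the pairs for PCB2, and for CRD1 they were apart at a ratio of 1.04 between the nearest pools. Intervals narrow as tags rise, and their separation was not counted over all genes. Among the carotenoid genes LUT1 alone had that order, with overlapping intervals. The reverse order held for 6 of 12 carotenoid genes, PDS3, ZDS, CRTISO, LYC, CYP97A3 and NPQ1, against 35.4% of all genes, and for GSA1 and PPOX of the 20 tetrapyrrole genes. The intervals overlapped for LYC and PPOX. The ratio of the pooled pairs was largest for GUN4 in the first order (1.73) and for ZDS in the second (1.74).

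These counts and their background depend on the scale. With the ribosomal repeats kept, the first order held for 2 tetrapyrrole genes against 3.46% of all genes, and the reverse for 7 carotenoid and 9 tetrapyrrole genes against 65.2%. By the median of ratios the first held for 13 tetrapyrrole and 4 carotenoid genes against 22.9%, and the reverse for 6 carotenoid and 0 tetrapyrrole genes against 23.7%. The same pairs differ in other measures. Ribosomal repeats took 54.6% of the tags in Altenb-2 and 53.1% in Vash-1, but 44.3% in Kly-1 and 40.8% in Shigu-2. Tags outside them numbered 22462179 and 24535666 against 29311532 and 37230794. The summed level of the 4 green tissue markers was 55034 CPM in Altenb-2 and 49124 in Vash-1, against 47846 in Kly-1 with 40993 in Shigu-2. Singly, LHCB2.2 and PSAL followed the pairs, and RBCS1A and CAB1 did not. RBCS1A had 17277 CPM in Altenb-2, 20308 in Vash-1, 18032.5 in Kly-1 and 17387 in Shigu-2. For CAB1 these were 31569, 23550.5, 25886 and 19873 CPM. The summed level of the 4 root markers, of which EXPA7 was not listed, was 7.57 and 7.05 CPM against 3.21 and 2.58. LRX1 among them had 6.50 and 4.73 CPM against 0.989 and 1.42. CASP1 did not follow the pairs, with 1.07 CPM in Altenb-2, 2.12 in Vash-1, 2.22 in Kly-1 and 1.15 in Shigu-2. SHV2 was listed in Vash-1 only, at 0.204 CPM. The part of these measures in the order of the pools was not tested.

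The place of transcription start was largely shared. The main start, the peak of a gene's largest cluster, was at the same base in all 4 pools for 24 of the 32 members at 5 CPM or more, against 60.6% of 14598 genes, and also for PORA. Within 20 bp it was shared by 28 of all 33 members, against 81.0% of genes. Taking 1 main start per gene, the pool peak whose clusters sum to the highest CPM, the base before the start was a pyrimidine and the start a purine in 33 of 33 members and in 90.7% of 14320 protein-coding genes. Taken pool by pool, 127 of 132 main starts had that step. The 5 without it were ALB1 in Altenb-2 and Vash-1, PORB in Kly-1, ZDS in Altenb-2 and BCH1 in Vash-1. The main clusters were wide, with a median of 124 bp against 65 bp, and their peaks held 36.3% of the cluster's tags against 39.0%. Neither the sharing of main starts nor the cluster width was compared at matched level. By median over the pools the width was 6 bp in PORA, the lowest member, and 141 bp in CRD1, the highest. Peaks were sharpest in PORC, with 77.7% of the cluster's tags, and in PORB with 71.8%, and broadest in HEME2 with 16.2%.

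The exceptions were 8 genes. In PORB the main start of Kly-1 was 47 bp past the gene start, with 90.1% of the cluster's tags at its peak. The other 3 pools had it at 45 bp, with 70.0 to 72.2% of the tags. Kly-1 is also the pool in which PORB was highest. The stretch from -18 to 11 is shown because these 2 starts lie so close, and capitals mark the bases at 45 and 47 bp.
PORB, chr4:13725573-13725602, plus strand: tactctctttcgcaaaatAtCcactacgat
In the reference the base at 47 bp is not a purine. All sequences here are of the TAIR10.1 reference, and those of the accessions were not used.

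ALB1 started mainly at 127 bp in Altenb-2 and Vash-1 and at 147 bp in Kly-1 and Shigu-2. The peak at 127 bp held 20.6% of the cluster in Altenb-2 and 56.1% in Vash-1, and that at 147 bp held 20.4% in Kly-1 and 22.0% in Shigu-2. The later start leaves 10 bp before the start codon and the earlier one 30 bp. Both lie in a run of pyrimidine-rich repeats, shown with the starts in capitals.
ALB1, chr1:2696503-2696532, plus strand: ttcttCttcttcttcttcttctcctAtctt
HEME2 had its main start at 40 bp in Altenb-2 and Vash-1 and at 77 bp in Kly-1 and Shigu-2, the same pairs as ALB1, with peaks of 13.3 to 19.3% of the cluster.
HEME2 at 40 bp, chr2:16912830-16912859, plus strand: ctatcttcttcgttcGaagacgttaacccc
HEME2 at 77 bp, chr2:16912867-16912896, plus strand: tgaaagagagaagatGctaagatctcaaaa

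BCH1 had its main start at 116 bp in Altenb-2 and Kly-1, at 113 bp in Vash-1 and at 180 bp in Shigu-2, which is 3 bp before the annotated start codon. The peak at 180 bp held 25.6% of the cluster. Capitals mark the starts in the 2 stretches.
BCH1 at 113 and 116 bp, chr4:13095922-13095951, minus strand: caccacatctctctcTctGtctatctatct
BCH1 at 180 bp, chr4:13095854-13095883, minus strand: ctcctccttccattAggatggcggcaggac
LUT2 started at 144 bp in 3 pools and at 204 bp in Vash-1. ZDS started at 340 bp in Altenb-2, at 263 bp in Shigu-2 and Kly-1, and at 266 bp in Vash-1. The main cluster of LUT2 held 15.3 of the gene's 31.8 CPM in Altenb-2 and 17.2 of 33.7 in Vash-1. That of ZDS held 14.5 of 33.6 CPM in Altenb-2 and 64.3 of 66.4 in Shigu-2. Where a pool's tags were split into several clusters, the main start depends on the cluster boundaries. CHLI2 (57 bp, and 65 bp in Vash-1) and PCB2 (95 bp in Altenb-2 and Shigu-2, 89 bp in Kly-1, 72 bp in Vash-1) moved by 8 and 23 bp at most.

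**Figure D4:**
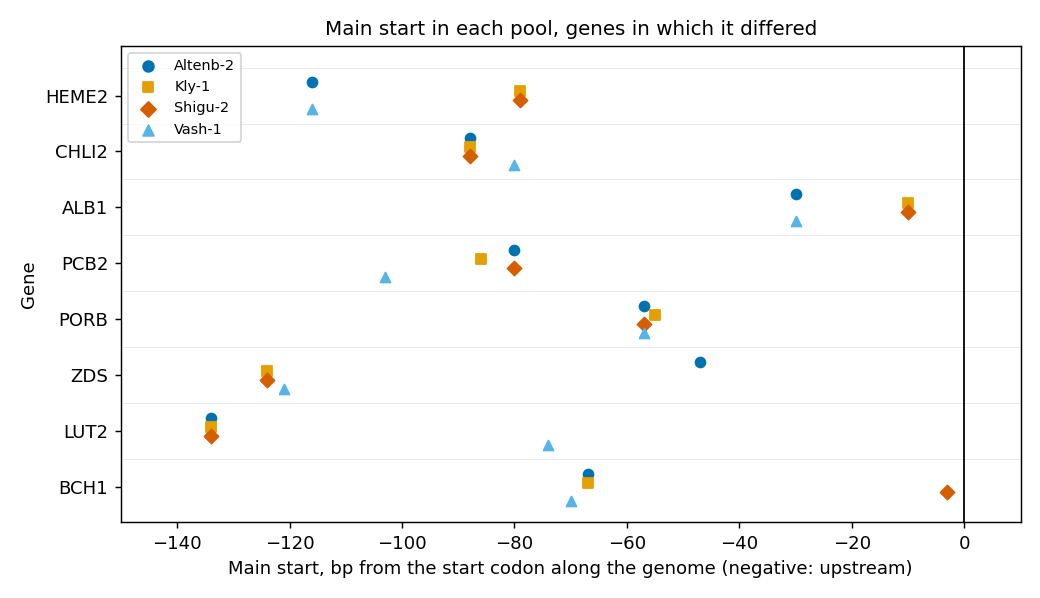
Main start in each pool for the 8 genes in which it differed, in bp from the start codon along the genome; points are pools and the vertical line is the start codon. BCH1 starts 3 bp before the start codon in Shigu-2, and the pairs Altenb-2 with Vash-1 and Kly-1 with Shigu-2 share a start in ALB1 and HEME2.

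ABA1 kept its main start at 224 bp in every pool and had a second group of starts upstream. The upstream cluster, with peaks at 130, 135 or 136 bp, had 12.0 CPM in Altenb-2, 33.1 in Vash-1, 9.42 in Kly-1 and 9.02 in Shigu-2. It held 9.82% (8.73 to 10.99) of the gene's tags in Altenb-2, 5.54% (4.92 to 6.22) in Kly-1, 3.68% (3.30 to 4.08) in Shigu-2 and 13.5% (12.7 to 14.4) in Vash-1. Shigu-2 and Vash-1, which had overlapping intervals for the total of ABA1, thus differed in this share. The stretch is shown with those starts in capitals.
ABA1, chr5:26757254-26757283, minus strand: tgaagtgtgttGcgttGCtgatgccacctg

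Leaders, the spliced distance from the main start to the start codon, had a median of 68 nt in 32 members against 84 nt in all genes. ALB1 (10 nt), ZDS (13 nt) and CRTISO (20 nt) had the shortest, and PSY the longest with 286 nt, 1 intron and 1 upstream ATG. An ATG lay in the leader of HEMB1, GUN5, PSY, LYC and LUT2, which is 15.6% of the members against 26.6% of genes. An intron lay in the leader of HEMB1, PSY, PDS3, ZDS and NPQ1, which is 15.6% against 18.9%. CHLM is not counted, as its main start at 142 bp lies 91 bp past the start codon of 1 annotated transcript and 51 bp before that of 4 others.

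The promoters were searched for short motifs in the 300 bp before the main start. GATAAG, the core of the I-box known from light-regulated promoters, was found on either strand in 15 of 33 members, 45.5%, against 16.6% of 14320 protein-coding genes at or above 5 CPM. In 14 of the 15 genes it lay within 100 bp of the start, where the background was 6.53%. It was read on the strand opposite to the gene, as CTTATC on the gene strand, in 14 members, 42.4% against 9.45%, and on the gene strand itself in LIN2 and ALB1, 6.06% against 7.97%. The look at strand and at 100 bp was chosen after the positions were seen. By branch the motif was in 12 of 21 tetrapyrrole genes and in ZDS, LUT1 and NPQ1 of the carotenoid genes. The stretches below show CTTATC in capitals, its first base at -56 in CHLI1, -53 in GUN4, -47 in CHLM, -34 in G4 and -33 in LUT1, the last up to the start itself.
CHLI1, chr4:10203439-10203468, minus strand: atctcCTTATCctgaccacagaaacaaaca
GUN4, chr3:21949743-21949772, minus strand: tccacacacCTTATCtttctcttcttcttt
CHLM, chr4:12876906-12876935, plus strand: tccttccctatCTTATCcaggataacgata
G4, chr3:19219031-19219060, minus strand: cgtagacattaCTTATCtccggtaacggac
LUT1, chr3:19692708-19692778, plus strand: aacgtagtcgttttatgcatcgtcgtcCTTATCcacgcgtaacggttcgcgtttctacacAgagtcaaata

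CACGTG, the G-box bound by basic helix-loop-helix and basic leucine zipper factors, was found in GUN5, CRD1, PORC and CH1, 12.1% of the members against 11.2% of genes. It reads the same on both strands. All 4 genes belong to the 9 in which Altenb-2 and Vash-1 were both higher, but among all genes with that order the share was 12.0%. The stretches show the G-box in capitals at -59 in GUN5 and PORC, -92 in CRD1, and -134 and -114 in CH1, with CTTATC in PORC (-35) and CH1 (-64) and a TATA box in CRD1 (-34).
GUN5, chr5:4392268-4392297, minus strand: aactattcgtcCACGTGtccttccctctca
PORC, chr1:907598-907627, plus strand: CACGTGtcactaacccaaaactacCTTATC
CRD1, chr3:21076440-21076530, plus strand: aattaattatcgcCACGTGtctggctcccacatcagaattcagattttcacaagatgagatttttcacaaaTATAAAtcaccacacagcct
CH1, chr1:16851248-16851334, minus strand: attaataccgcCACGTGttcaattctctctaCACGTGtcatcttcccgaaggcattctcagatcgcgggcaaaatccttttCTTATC

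**Figure D5:**
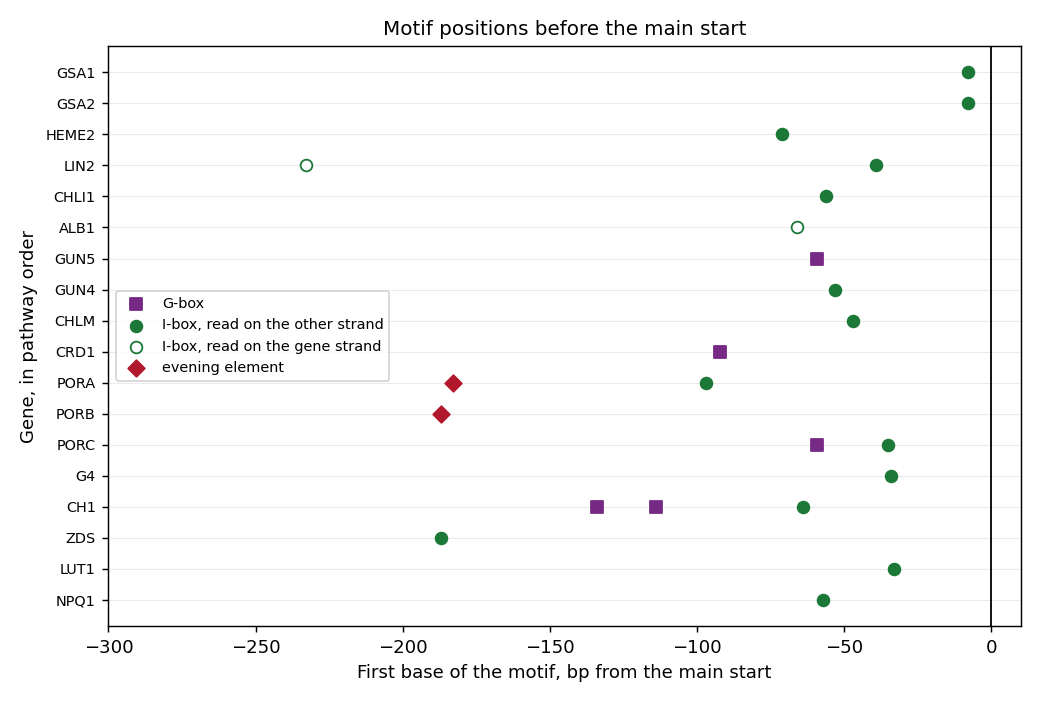
Positions of the G-box (CACGTG, squares), the I-box core (GATAAG, circles, filled where it is read on the strand opposite to the gene) and the evening element (diamonds) in the 300 bp before the main start, in bp from the main start, for the members that hold at least 1. The I-box cores cluster between -97 and -8 apart from LIN2 (-233) and ZDS (-187), and LIN2 also has one at -39.

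TATA boxes (TATAAA or TATATA starting at -40 to -25) were found in CRD1 and PORA, 6.06% of the members, against 21.7% of genes. PORA and CRD1 are the lowest and the highest member by level. The promoter of PORA is shown from -60 to 10 with the overlapping boxes at -33 and -31 and the start in capitals.
PORA, chr5:21992801-21992871, minus strand: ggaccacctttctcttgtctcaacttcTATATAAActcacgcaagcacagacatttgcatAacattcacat
A run of at least 8 pyrimidines in the 60 bp before the start was in 20 of 33 members, 60.6% against 45.2%. The evening element AAAATATCT, a motif of clock-regulated promoters, was in PORA (-183) and PORB (-187), 6.06% against 3.34%. CCAAT was in 63.6% of the members against 54.98% of genes, and CCGAC, the core of the cold-responsive element, in GSA1, GSA2, CHLI1, GUN5, CRD1, G4 and LUT1, 21.2% against 18.5%. Motifs on both strands were counted, except the TATA box and the pyrimidine run. A match is only a match of letters and no measurement of binding.

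The pathway around the members held 49 further genes on a list of supply, side and breakdown steps and regulators, of which 44 reached 5 CPM and 10 spanned 2-fold, 22.7%, close to the 23.5% of all genes. The counts by list that follow are too small to be read against that share. In the tetrapyrrole list these were HEMA2, the second glutamyl-tRNA reductase gene, at 2.14 CPM in Altenb-2, 4.36 in Vash-1, 5.05 in Kly-1 and 2.18 in Shigu-2, with hemf2 at 47.9, 5.18, 27.1 and 20.4 CPM. In chlorophyll b reduction and breakdown they were 3 of 9 genes. The chlorophyll b reductase gene NOL had 33.3, 15.2, 27.9 and 24.0 CPM, in the order Altenb-2, Vash-1, Kly-1 and Shigu-2, and the stay-green gene NYE1 had 5.48, 8.84, 7.91 and 11.6 CPM. The chlorophyllase gene CLH2 had 7.97, 29.96, 22.3 and 11.7 CPM. In isoprenoid supply the isomerase gene IPP1 had 37.0, 40.5, 38.9 and 15.1 CPM and was the single gene of 7. Of 3 measurable genes of carotenoid cleavage, 2 spanned 2-fold. NCED3, which makes the abscisic acid precursor, had 24.5 CPM in Altenb-2, 58.9 in Vash-1, 6.45 in Kly-1 and 11.1 in Shigu-2. CCD4, another cleavage gene, had 396, 339, 151 and 302 CPM.

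Of 9 regulators, 2 spanned 2-fold, 22.2% against 23.5% of all genes. CGA1, a GATA factor, had 19.1 CPM in Altenb-2, 23.2 in Vash-1, 9.86 in Kly-1 and 7.36 in Shigu-2. The members GUN5, GUN4, PORC, G4 and CH1 had the same order of pools, each with overlapping intervals between some neighbouring pools. This order is a case of the split in pairs that was chosen after the values were seen. It was not counted over all genes, and a link of CGA1 to these members was not tested. HY5, a basic leucine zipper factor of light signalling, had 21.4, 45.1, 24.0 and 34.4 CPM. GNC, the close relative of CGA1, spanned less than 2-fold at 76.4, 59.99, 57.3 and 75.8 CPM.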

How the data were processed

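CAGE tags of 24 libraries were provided by the authors as 1 table of start site clusters in 4 sets. Cluster counts are raw whole-number counts deposited without normalization, and the peak ratio is a fraction deposited per cluster, both per the file headers, with positions and widths in bp. The submitters' processing notes name the aligner STAR 2.7.9a, and neither build nor clustering rule is stated. The smallest listed cluster held 5 tags in every pool, which is 0.134 CPM in Shigu-2 and up to 0.223 in Altenb-2. Weaker starts are therefore not listed, and whether other filters were used is not stated. Coordinates were set against TAIR10.1: 70.8% of peaks lay on a pyrimidine-purine step, against 19.99% at 50 bp away.

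Levels add up same-strand clusters peaking from 500 bp upstream of a gene's start to its end, scaled to CPM over the tags outside the ribosomal repeats (annotated genes with 5000 bp on each side). Differences use log2(CPM + 0.5) and take in genes that reach 5 CPM in a pool. Intervals are exact Poisson (levels) and exact binomial (ratios, shares) ones. Tags may include PCR copies. Steps were tested on simulated data. Python 3.11.15, numpy 2.4.6, pandas 2.3.3 and scipy 1.17.1 were used. Tags shared with a same-strand neighbour were at most 0.966% of a member's tags (LUT1). The members, gene lists and motifs were chosen with earlier results of these data known. All members are named; values in every pool are given for members spanning 2-fold, the 5 highest and 5 lowest, and enzymes of 1 step. Planned tests of treatment could not be made, as no column gives a library.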

Additional observations from a re-analysis of the deposited data

Results flagged for a closer look

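In GSA2, Vash-1 with 91.7 CPM lay far from the other 3 pools (67.7 to 70.2 CPM), and in LUT1, Altenb-2 with 82.5 CPM lay far from the rest (49.6 to 50.9 CPM). Both met a gap criterion that chance alone meets in about 1 of 20 groups, and 33 genes were examined.

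Antisense clusters, which enter no level above, were listed inside 8 members and in all 4 pools for GUN4 and PORC. They were not counted over all genes, so whether these counts are usual is not known. Those of GUN4 had 1.16 CPM in Altenb-2, 2.53 in Vash-1, 1.30 in Kly-1 and 2.52 in Shigu-2, or 0.214 to 0.791% of the sense tags. Those of PORC had 0.579, 0.611, 0.614 and 0.483 CPM, up to 0.507% of the sense tags. The others of the 8 had 1 antisense cluster each, of 5 to 10 tags in a single pool.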

How the results depend on the processing

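Of 61 recomputed values, 45 kept within 1.5 times the reported count or within counting error. The 45 include the branch medians relative to all genes, whose outcome was largely fixed in advance, so the tally does not measure stability. The number of members spanning 2-fold, reported as 1, became 5 with the ribosomal repeats kept (PORB, PDS3, ZDS, CYP97A3 and ABA1), while the background rose to 32.96%, and 0 with a pseudocount of 2 CPM. TATA boxes were found in 1 member in a control window 100 bp further upstream, against 2 at the usual distance. With the ribosomal repeats kept, 2 tetrapyrrole genes in place of 9 had Altenb-2 and Vash-1 both higher, a setting chosen after seeing the data. Branch medians relative to all genes barely move with the scale by construction. Not set against all genes, in comparisons added after seeing the data, the tetrapyrrole medians turned sign with the ribosomal repeats kept, from 0.11 to -0.13 in Altenb-2, 0.15 to -0.026 in Vash-1, -0.0076 to 0.14 in Kly-1 and -0.25 to 0.014 in Shigu-2. By the median of ratios they were 0.25 in Altenb-2 and -0.41 in Shigu-2. The carotenoid medians became -0.54, -0.31, 0.24 and 0.58 with the repeats kept, in the same order of pools, and -0.17 in Altenb-2 and 0.17 in Shigu-2 by the median of ratios. The main start was shared by 25 to 28 of 33 members over the tolerances, and by 24 of 32 with genic clusters alone. The cause of the changes was not tested. No paired analysis was possible because the pools carry no replicate, and no library could be left out. PORA, with 27 to 66 tags, is limited by depth.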
